A study of Homo sapiens with 16 samples.

Results

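The replication-dependent histone genes encode the linker histone H1 and the core histones H2A, H2B, H3 and H4 that package newly made DNA. They were taken here as the protein-coding genes whose GENCODE 29 name starts with HIST1H, HIST2H, HIST3H or HIST4H and which had at least 10 estimated reads in at least 2 libraries. Of 71 such genes, 57 met the rule: 5 H1, 16 H2A, 15 H2B, 10 H3 and 11 H4 genes. They are 57 of 35052 genes with matched transcripts, and all 57 were among the 17559 genes that passed the low-count filter. Genes are called by their current symbols.

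RNA was sequenced from K562, an established human leukaemia cell line labelled wild type, before treatment (0 h) and in 25 nM PMA, a phorbol ester that activates protein kinase C. The treated cells were taken at 0.5 h and 1.5 h, at 3 h and 6 h, and after 24, 48 or 72 h. Each time point had 2 libraries, 16 in all, and the 0 h libraries are the control of every comparison with 0 h. The labels name a megakaryocyte differentiation, and the medium was changed after 24 and 48 h. Total RNA was depleted of ribosomal RNA, so transcripts without a poly(A) tail are kept. The labels do not say that the libraries of a time point came from separate cultures, so p-values measure only the spread between these libraries.

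Most histone mRNAs of this family are not spliced and do not end in a poly(A) tail. They end a few bases after a short conserved stem-loop, which the stem-loop binding protein SLBP holds through cleavage, translation and decay. Their mRNAs are made and kept mainly while DNA is replicated, and they are degraded when replication stops. The genes lie in clusters, and some also give longer transcripts that run past the stem-loop or are spliced.

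The histone stem-loop was searched as a pattern of 16 bases on the transcript strand of the GENCODE 29 models of GRCh38. It was found in 29 members (50.9%), against 0.428% of 35049 genes searched, and most of the other members have models that hold the coding sequence alone. The sequences below are shown because they are the element that sets how these RNAs end. Each is given with 5 flanking bases on either side, and capitals mark the 16 bases of the motif. All 6 forms found are shown.
H2BC21, H2AC8 and 14 other H2A, H2B and H3 genes, here from H2BC21: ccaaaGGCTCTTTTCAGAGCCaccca
H2BC4, H2BC5 and H2BC7, from H2BC4: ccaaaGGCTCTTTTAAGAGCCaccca
H2AC11: ccaacGGCTCTTTTCAGGGCCaccca
H3C6: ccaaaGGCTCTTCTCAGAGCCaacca
H4C2, H4C5, H4C8, H4C11 and H4C16, from H4C5: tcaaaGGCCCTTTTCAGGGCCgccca
H4C9, H4C14 and H4C15, from H4C14: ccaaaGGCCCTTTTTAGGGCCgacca
The H4 genes had 2 forms, of 5 and 3 genes, that no other class had. The first form was shared by 6 H2A, 8 H2B and 2 H3 genes.

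Promoters also differed between classes. In the 250 bases before the RefSeq start (GRCh38.p14, both strands, 53 members matched), CCAAT stood in all 5 H1, 15 H2A, 15 H2B and 9 H3 promoters but in 1 of 9 H4 promoters, against 32.0% of 35116 promoters of all genes. The octamer ATTTGCAT stood in 10 of 15 H2A and 11 of 15 H2B promoters and in none of the H1, H3 and H4 promoters, against 1.63% of all. The windows of an H2A and an H2B gene that lie head to head overlap. The same octamer or CCAAT can thus count for both genes, as the octamer does for H2AC1 and H2BC1. AAACACA, known as the H1 box, stood in 5 of 5 H1 promoters, against 4.82% of all, and TATAAA in 36 of 53, against 10.7%. Each motif was searched on its own, so matches that overlap count for both, and a match is a description of the letters, not a bound site. The 180 bases before the start are shown for the member of each class with the highest mean level, with these motifs in capitals on either strand.
H1-2, chr6:26056471-26056650, minus strand: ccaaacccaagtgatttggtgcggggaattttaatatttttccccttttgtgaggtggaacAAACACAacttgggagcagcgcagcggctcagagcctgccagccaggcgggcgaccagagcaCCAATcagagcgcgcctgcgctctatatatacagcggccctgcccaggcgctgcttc
H2AC11, chr6:27132863-27133042, plus strand: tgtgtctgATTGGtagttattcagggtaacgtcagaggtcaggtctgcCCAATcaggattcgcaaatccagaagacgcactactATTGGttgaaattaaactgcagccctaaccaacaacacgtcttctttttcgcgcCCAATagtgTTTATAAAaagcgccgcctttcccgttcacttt
H2BC21, chr1:149886683-149886862, minus strand: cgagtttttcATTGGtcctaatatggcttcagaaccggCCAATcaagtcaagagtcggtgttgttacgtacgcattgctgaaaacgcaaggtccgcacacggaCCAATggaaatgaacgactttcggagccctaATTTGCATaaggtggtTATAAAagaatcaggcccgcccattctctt
H3C14, chr1:149841209-149841388, minus strand: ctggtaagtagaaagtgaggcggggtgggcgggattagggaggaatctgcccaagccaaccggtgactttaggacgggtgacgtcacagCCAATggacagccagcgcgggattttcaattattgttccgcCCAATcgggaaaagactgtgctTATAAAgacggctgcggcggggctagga
H4C5, chr6:26204430-26204609, plus strand: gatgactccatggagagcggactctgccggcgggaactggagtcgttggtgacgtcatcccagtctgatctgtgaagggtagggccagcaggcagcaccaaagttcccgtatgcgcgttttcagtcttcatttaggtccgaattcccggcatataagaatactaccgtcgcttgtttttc
The printed H4C5 stretch held none of these letters, and the others held CCAAT on at least 1 strand.

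Library totals were 27285773 to 54056289 estimated reads. The members took 0.762 to 1.00% of matched reads at 0 h and 0.165 to 0.178% at 24 h. One library stood apart: 0 h replicate 2 had 1.36 times the summed histone level of 0 h replicate 1. It was the higher of the pair for 53 of 57 members, while the ratio was 0.830 to 1.13 at the other time points. Over all genes the 0 h libraries also differed most, with a chi-square per gene of 48.3, against at most 33.5 at another time. Replicate 2 of 0 h had the smallest median gap between transcript and effective length, 199.2 nt against 210.0 to 248.4 nt elsewhere. That gap tracks fragment length. This library also had the largest unmatched share of reads, 3.75%. The part of these differences in the comparisons with 0 h was not tested. The median GC content was 57.2% for members and 49.1% for all genes tested. The erythroid genes of K562 were present, with HBG2 at 422 to 973 CPM, CD14 of monocytes and CD3E of T cells stayed at or below 0.587 CPM, although LYZ had means of 35.5 to 80.7 CPM and CD3D of 5.60 to 16.8 CPM, and the megakaryocyte genes GP1BA and PF4 at or below 0.112 CPM, while ITGB3 had a mean of 1.52 CPM at 0 h and 1092 CPM at 72 h and its partner ITGA2B means of 57.8, 13.1 and 61.9 CPM at 0, 24 and 72 h. KRT8 and COL1A1, known from epithelial cells and fibroblasts, had means of 261 and 3.46 CPM at 0 h and 1566 and 109 CPM at 24 h, and EPCAM of 44.9 CPM at 0 h and 82.6 CPM at 6 h. The part of these changes in the histone results was not tested. Levels are given in CPM, a gene's estimated reads relative to the TMM-scaled library total, and each time point has n = 2.

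Histone RNA fell sharply between 6 and 24 h in all 5 classes, returned in part at 48 h and stood lower again at 72 h. Summed over the 57 members, the level was 6689 and 9081 CPM at 0 h, 6053 and 6530 CPM at 6 h, 1705 and 1932 CPM at 24 h, 3688 and 4021 CPM at 48 h, and 2548 and 2638 CPM at 72 h. The libraries of 24, 48 and 72 h did not overlap one another or those of 0 h. At 24 h the mean was 23.1% of that at 0 h, at 48 h 48.9% and at 72 h 32.9%. In summed TPM, which divides each transcript by its effective length, the same shares were 20.2, 49.96 and 33.4%. In these bulk libraries, fewer cells making histone RNA and less histone RNA per cell cannot be told apart.

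The H3 class fell furthest in the sum, from 1033 ± 289 CPM (SD, n = 2) at 0 h to 143 ± 16.1 CPM at 24 h, which is 13.9% of the starting level. H2A genes kept 20.9%, H1 genes 21.5%, H4 genes 24.6% and H2B genes 31.6% of the 0 h level at 24 h. At 48 h the H2A, H3 and H4 sums were at 48.3 to 49.4%, the H2B sum at 59.6% and the H1 sum at 36.5%. The differences between classes were not tested.

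**Figure D1:**
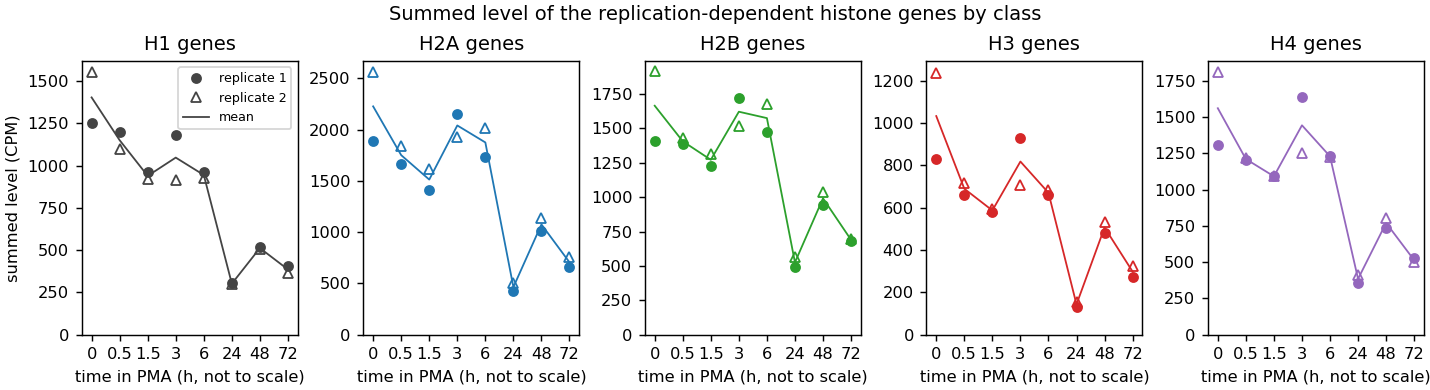
Summed level in CPM of the histone genes of each class (vertical axis, from 0) at each time in PMA (horizontal axis, in hours, not to scale), with filled circles for replicate 1, open triangles for replicate 2 and a line through the means. In each class both 24 h libraries sit below every library of the earlier times, and the 48 h libraries sit above those of 24 h.

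Single genes were compared with 0 h by edgeR's quasi-likelihood test over all 17559 genes, and a gene was called where its p, adjusted by Benjamini-Hochberg over all genes of that comparison, was under 0.05. At 24 h 53 of 57 members were lower and 1 was higher, where 58.3% of all genes tested were called, 26.6% lower and 31.7% higher. The median log2 fold change was −2.41 for the members and −0.01 for all genes. The calls at 24 h covered 4 of 5 H1, 15 of 16 H2A, 14 of 15 H2B, 9 of 10 H3 and 11 of 11 H4 genes as lower. By cluster, 40 of 43 HIST1 genes on chromosome 6, 10 of 11 HIST2 and 2 of 2 HIST3 genes on chromosome 1 and the HIST4 gene on chromosome 12 were lower. Both 24 h libraries lay below both 0 h libraries for 56 of 57 members and for 38.3% of all genes tested, and the members not called were H1-6, H2AC18 and H3C6. Tested for any difference over the whole course, 55 of 57 members were called, against 82.9% of all genes. Of the members, 48 had their lowest mean at 24 h and 39 their highest at 0 h, without a count over all genes to set beside these. The 0 h means include replicate 2, which was the higher of its pair for 53 of 57 members. Without 0 h replicate 2 the members' median at 24 h was −2.17, and without 0 h replicate 1 it was −2.55.

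At 72 h 53 members were lower and 0 higher, with a background of 58.6% called, 26.9% lower and 31.7% higher, and a median of −1.68. At 48 h 44 were lower and 0 higher, against 54.3% called in the background, 24.1% lower and 30.2% higher, with a median of −1.04. For the counts of 0 higher, edgeR also gave 0 members higher at an unadjusted p under 0.05 at 48 and at 72 h, and DESeq2 called 0 at both. Of all 17559 genes, 10397 had such a p at 48 h and 11034 at 72 h by edgeR, in either direction. Without 0 h replicate 2 the members' median was −0.785 at 48 h and −1.35 at 72 h. Without 0 h replicate 1 it was −1.22 and −1.89. With both 0 h libraries, the 48 h means of H2BC6, H2BC8 and H3C12 were at 111, 111 and 127% of those at 0 h, none of them called.

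The linker histone with the most reads was H1-2 (chromosome 6, 26055787 to 26056428, GRCh38, as for all gene positions here). It had 789 and 948 CPM at 0 h, 800 and 707 at 0.5 h, 671 and 619 at 1.5 h, 845 and 619 at 3 h, 723 and 663 at 6 h, 232 and 219 at 24 h, 326 and 296 at 48 h, and 267 and 213 CPM at 72 h. All 6 libraries from 24 h on lay below all 10 earlier ones. The fall was −1.94 ± 0.157 on the log2 scale (SE; adjusted p = 1.57e-07, edgeR) at 24 h and −1.86 at 72 h, and the 48 h level was not called against 24 h. Another linker histone, H1-4, fell most of its class at 72 h, from 352 and 489 CPM at 0 h to 95.9 and 107 CPM (log2 fold change −2.05 ± 0.144, adjusted p = 3.29e-08, edgeR). H1-3 was among the largest falls at 3 h, at 24.4 and 20.2 CPM against 41.9 and 45.4 CPM at 0 h (−0.97 ± 0.109, adjusted p = 8.81e-06, edgeR).

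H2AC11 (chromosome 6, 27133042 to 27135291) had the most reads among the H2A genes, which encode a histone of the outer face of the nucleosome. Its levels were 351 and 455 CPM at 0 h, 318 and 345 at 0.5 h, 247 and 290 at 1.5 h, 355 and 327 at 3 h, 261 and 315 at 6 h, 73.4 and 86.2 at 24 h, 186 and 216 at 48 h, and 111 and 130 CPM at 72 h. The 24, 48 and 72 h libraries formed 3 levels that did not overlap. The log2 fold change at 24 h was −2.34 ± 0.155 (adjusted p = 2.14e-08, edgeR), and 72 h was lower than 48 h by a called −0.74. H2AC15 had one of the largest falls at 1.5 h, from 20.96 and 32.1 CPM to 12.5 and 12.9 CPM (−1.07 ± 0.193, adjusted p = 0.00279, edgeR).

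The H2A genes H2AC18 and H2AC19 on chromosome 1 cannot be separated. Every 31-base stretch of H2AC18 is also in H2AC19, so the estimates split their reads. H2AC18 alone was listed at 53.2 and 0 CPM at 72 h, and its fall of −3.75 there rests on the library at 0. The summed pair had 547 and 771 CPM at 0 h, 114 and 140 CPM at 24 h, 266 and 297 CPM at 48 h, and 152 and 186 CPM at 72 h. As 1 unit it changed by −2.37 ± 0.177 at 24 h (adjusted p = 6.93e-08, edgeR) and by −1.97 at 72 h, near the members' medians.

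H2BC21 (chromosome 1, 149884459 to 149886652) had the most reads of the H2B genes, the partners of H2A in the nucleosome. It had 253 and 327 CPM at 0 h, 256 and 264 at 0.5 h, 227 and 258 at 1.5 h, 326 and 316 at 3 h, 299.6 and 365 at 6 h, 78.1 and 91.7 at 24 h, 138 and 155 at 48 h, and 107 and 114 CPM at 72 h. Up to 6 h its libraries overlapped those of 0 h, and from 24 h on they did not. The log2 fold change was −1.77 ± 0.138 at 24 h (adjusted p = 1.10e-07, edgeR) and −1.39 at 72 h.

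H3C14 (chromosome 1, 149839538 to 149841193) had the most reads of the H3 genes, which encode the core histone whose tail carries many of the known chromatin marks. It had 339 and 516 CPM at 0 h, 252 and 259 at 0.5 h, 217 and 219 at 1.5 h, 391 and 281 at 3 h, 306 and 312 at 6 h, 47.2 and 55.0 at 24 h, 199 and 223 at 48 h, and 97.4 and 130 CPM at 72 h. The 24 h libraries were the lowest of all, and those of 48 h were about 4 times as high (+2.04 ± 0.199, adjusted p = 1.79e-05, edgeR). H3C15 (chromosome 1, 149852619 to 149854274) had no quantified transcript. Any of its reads that match H3C14 would thus count in the level and rank of H3C14, and their part was not tested. H3C13 had the largest fall at 24 h among members with an estimate above 0, from 46.8 and 70.5 CPM to 3.62 and 4.88 CPM (−3.77 ± 0.273, adjusted p = 5.29e-08, edgeR). Of its 31-base stretches, 86.4% are in other genes, and summed with its near copies H3-7 and H3P4 it changed by −3.47.

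H3C4 was listed at 5.74 and 11.5 CPM at 0 h and at 0 in both libraries of 6, 24 and 72 h. Against the floor of 3 reads per library this is at least 108-fold lower at 24 h. All of its 31-base stretches are also in a longer gene, ENSG00000282988, to which its reads can be assigned. Summed with that gene and H2AC7, the unit fell by 1.61 on the log2 scale at 24 h (SE 0.133, adjusted p = 1.93e-07, edgeR), and its lowest library was at 45.1 CPM. DESeq2 did not call H3C4 alone at 6, 24 or 72 h.

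H4C5 (chromosome 6, 26204552 to 26206038) had the most reads of the H4 genes. It had 238 and 330 CPM at 0 h, 234 and 264 at 0.5 h, 234 and 277 at 1.5 h, 319 and 318 at 3 h, 232 and 294 at 6 h, 95.4 and 132 at 24 h, 187 and 238 at 48 h, and 136 and 147 CPM at 72 h. Its fall was smaller than the members' median, at −1.32 ± 0.188 at 24 h (adjusted p = 3.96e-05, edgeR), and it was not called at 48 h. H4C1 fell most of its class at 72 h, from 12.1 and 17.4 CPM to 2.45 and 1.91 CPM (−2.75 ± 0.335, adjusted p = 8.19e-06, edgeR). H4C9 was already down at 3 h, at 25.4 and 21.2 CPM against 45.9 and 58.4 CPM (−1.16), and at 6 h, at 13.7 and 14.8 CPM (−1.87 ± 0.150, adjusted p = 1.21e-07, edgeR).

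**Figure D2:**
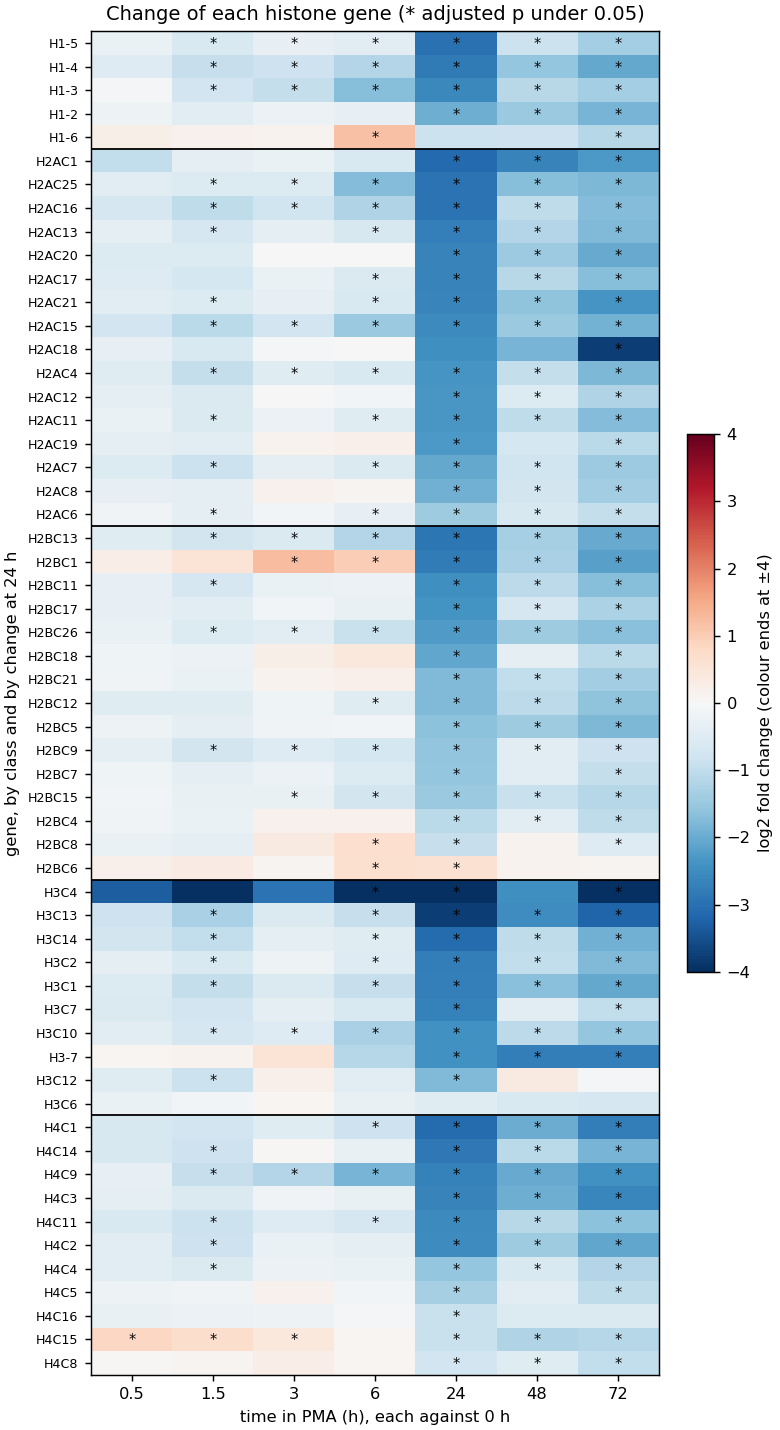
Log2 fold change of each of the 57 histone genes (rows, grouped as H1, H2A, H2B, H3 and H4 and ordered by the change at 24 h) at each time against 0 h (columns, in hours), with blue for lower and red for higher, colours ending at ±4, and a star where the adjusted p was under 0.05. The 24 h column is blue in all rows but H2BC6, with 53 lower calls, and the few red cells with a star lie mostly at 6 h or earlier.

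Per length, the highest members at 0 h were H4C11 at 3106 ± 493 TPM (SD, n = 2) and H1-2 at 2920 ± 118 TPM, which overlap within their spread, and then H2BC12 at 1851 ± 384 and H3C2 at 1675 ± 296 TPM. The lowest were H3C6 at 1.07 ± 0.109 and H3-7 at 1.26 ± 0.0380 TPM. H4C11 was at 516 TPM and H1-2 at 732 TPM at 24 h, and both libraries of each were below those of 0 h. These ranks depend on the length of the models, 373 nt for H4C11 and 381 nt for H2BC12 but 1487 nt for H4C5. Of the 31-base stretches of H4C11 and H2BC12, 82.2 and 86.3% are in other genes.

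Before 24 h the changes were smaller and rested on the 0 h libraries. At 1.5 h 27 members were lower and 1 higher (background 17.1% called, 8.05% lower and 9.05% higher), with a median of −0.58. At 3 h 13 were lower and 2 higher (background 42.0% called, 20.5% and 21.5%), with a median of −0.24, and at 6 h 27 were lower and 4 higher (background 57.2% called, 29.4% and 27.8%), with a median of −0.47. Without 0 h replicate 2 the lower calls fell to 7 at 1.5 h, 3 at 3 h and 14 at 6 h, and without 0 h replicate 1 they were 41, 26 and 35. Without 0 h replicate 2, 1.70% of all genes were lower at 1.5 h, 16% at 3 h and 26.3% at 6 h, and without 0 h replicate 1 these shares were 13.4, 20 and 27.7%. Within replicate 1 libraries the median at 3 h was +0.13, within replicate 2 it was −0.62. At 0.5 h 3907 of all 17559 genes had an unadjusted p under 0.05 by edgeR, in either direction. Of the members, 0 were called lower there (27 at that unadjusted threshold, and 4 by DESeq2) and 1 was called higher (background 0.171% called, 0.0057% lower and 0.165% higher). Without 0 h replicate 1, 29 were lower at 0.5 h, as were 9.13% of all genes in that fit.

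Scaling and base composition also moved these early values. Scaled to total counts, the median of all genes shifted to −0.35 at 6 h and −0.26 at 24 h, and the members' medians relative to it were −0.48 and −2.39. The lower calls were then 37 at 1.5 h, 30 at 3 h and 41 at 6 h, with 1 member higher at each time. With the GC trend removed from each library, the median at 6 h was −0.24 with 18 lower calls, and at 24 h −2.30 with 52. The shares of all genes called under these settings are not given here, so these counts have no background. The part of GC content in the early differences was not tested beyond this.

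A small set of members rose. At 6 h the 4 called higher were H1-6, H2BC1, H2BC8 and H2BC6. H1-6, a linker histone known from the testis, had 1.35 and 1.54 CPM at 0 h and 3.20 and 3.36 CPM at 6 h (+1.18 ± 0.362, adjusted p = 0.0122, edgeR), then at 0.502 and 0.812 CPM at 72 h. H2BC1, an H2B gene also known from the testis, had 2.27 and 2.03 CPM at 0 h, 5.48 and 4.70 at 3 h, 4.14 and 4.35 at 6 h and 0.129 and 0.436 CPM at 24 h. Its rise was +1.24 ± 0.271 at 3 h (adjusted p = 0.00210, edgeR), and its fall −2.80 at 24 h. H2BC8 had 107 and 149 CPM at 0 h, 202 and 206 at 6 h and 65.5 and 69.8 CPM at 24 h (+0.67 at 6 h, −0.92 at 24 h, both called). Scaled to total counts, H2BC8 alone was still called higher at 6 h, with adjusted p (edgeR) of 0.0906 for H1-6, 0.0748 for H2BC1 and 0.0995 for H2BC6. None of the 4 rises at 6 h passed a test against a 1.5-fold change. The rise of H2BC1 at 3 h passed that test (adjusted p = 0.0261, edgeR) and was called with total counts (adjusted p = 0.0114, edgeR).

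H4C15 was the member called higher at 0.5 h, at 62.2 and 63.4 CPM against 38.0 and 33.3 CPM at 0 h (+0.82 ± 0.139, adjusted p = 0.0309, edgeR), and also at 1.5 h. Of its 31-base stretches, 96.9% are in H4C14, which was at 198 and 196 CPM at 0.5 h against 246 and 370 CPM. Summed, the pair was at 260.4 and 259.7 CPM against 284 and 404 CPM, a change of −0.40 that was not called (adjusted p = 0.241, edgeR). Most of that sum is H4C14, so it does not test H4C15 alone, and how the reads divide between the copies is uncertain. The 0.5 h call of H4C15 was also lost without 0 h replicate 2 (adjusted p = 0.35, edgeR), without either 0.5 h library, and scaled to total counts.

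The step from 24 to 48 h was upward. In this comparison, chosen after the data had been seen, 44 members were higher and 1, H2BC6, was lower (background 15.0% called, 8.88% higher and 6.12% lower), with a median of +1.13. H1-5 rose from 8.55 and 8.70 CPM at 24 h to 37.4 and 37.7 CPM at 48 h (+2.12 ± 0.112, adjusted p = 8.50e-08, edgeR). H3C12 had 3.26 and 3.59 CPM at 24 h and 13.6 and 16.01 CPM at 48 h, which overlapped its 9.61 and 13.7 CPM at 0 h. H1-2 and H2BC5 were not called in this step, with changes of +0.46 and +0.23.

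From 48 to 72 h both libraries were lower for 46 of 57 members and for 19.5% of all genes, with 9 called lower and 0 higher (background 1.47% called, 0.325% lower and 1.14% higher) and a median of −0.54. At an unadjusted p under 0.05, edgeR gave 40 lower and 0 higher, and DESeq2 called 20 lower and 0 higher. Of all 17559 genes, 2098 had an unadjusted p under 0.05 in this step by edgeR, in either direction. Leaving out any 1 of the 4 libraries left 0 to 2 calls. Against 24 h, the 72 h level was higher for 30 members and lower for 1, H2BC6 (background 26.3% called, 13.9% and 12.4%). From 6 to 24 h 52 were lower and 0 higher (background 56.6% called, 25.8% and 30.8%), with 0 higher also at an unadjusted p under 0.05 and by DESeq2. From 1.5 to 3 h 9 were higher and 0 lower (background 25.1% called, 13.0% and 12.1%), with 0 lower at an unadjusted p under 0.05 and by DESeq2, while scaled to total counts 3 were higher and 4 lower. Of all genes, 10823 had an unadjusted p under 0.05 by edgeR from 6 to 24 h and 6105 from 1.5 to 3 h, in either direction.

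Members were then set apart by the transcript models in the tables. There were 4 groups: 6 genes with models ending within 60 bases after the stem-loop, 12 running past it, 26 with no stem-loop in the model, and 13 with at least 1 spliced model. At 24 h the medians were −2.49, −2.30, −2.67 and −1.43, and at 72 h −1.70, −1.61, −1.82 and −1.03. The group with spliced models held the smallest falls. H3C2, H2AC21 and H3-7 count as having no stem-loop, but their quantified models differ in length from GENCODE 29, so their group is uncertain. These medians are descriptions, and the groups were not tested against each other.

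**Figure D3:**
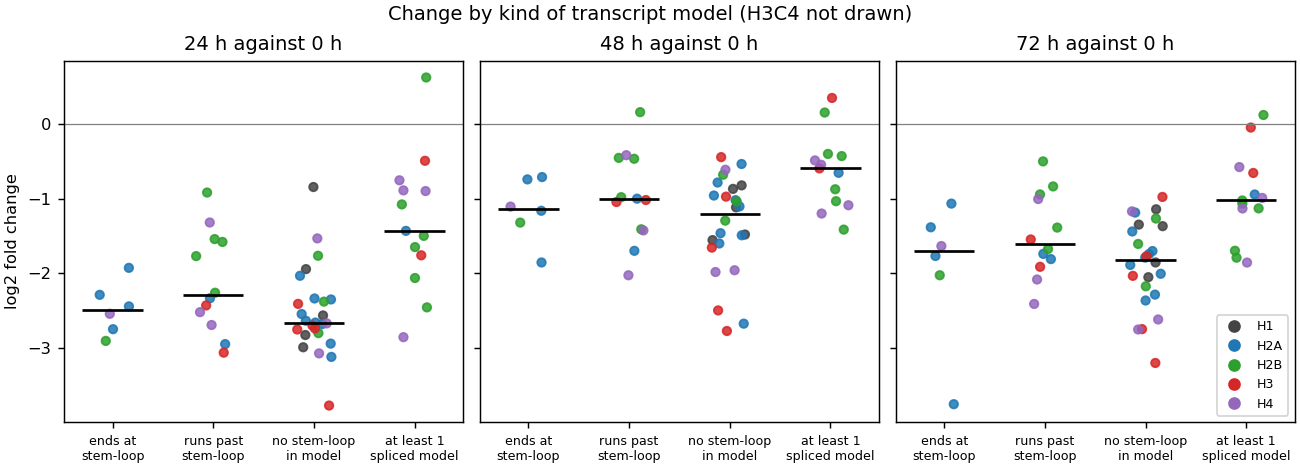
Log2 fold change (vertical axis) of each histone gene at 24, 48 and 72 h against 0 h, grouped by the kind of transcript model (horizontal axis), with 1 point per gene coloured by class and a bar at the group median. Genes with at least 1 spliced model have the median nearest to 0 in each panel, and H3C4, which is listed at 0 at 24 and 72 h, is not drawn but counts in the medians.

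H2BC5 and H4C8 were chosen after their values were seen. In both the form that ends at the stem-loop was lower at 24 h and a spliced form was not. Other genes varied. In H2BC11 the 381-nt unspliced and the 950-nt spliced form were both lower, at 17.2 and 18.2% of their 0 h levels. H3C12 was alike, at 29.1 and 32.4%, but its spliced form was at only 0.964 CPM at 0 h and 0.313 CPM at 24 h. Of the 31-base stretches of H3C12, 42.4% are in H2AC17. In H2BC18 the 752-nt and 999-nt spliced forms were at 3.59 and 39.9%, and the 1954-nt unspliced form at 24.6%. In H4C15 the spliced form was at 51.9% and the unspliced form, at 0.934 CPM at 0 h, at 135%. In H2BC4 the spliced form was at 88.7% and the unspliced form at 40.9%. For H2BC5 the 496-nt form that ends at the stem-loop went from 123 ± 34.5 CPM (SD, n = 2) to 23.9 ± 1.62 CPM at 24 h, while the 789-nt spliced form was at 20.2 ± 1.12 and 21.7 ± 4.52 CPM. The share of the spliced form in H2BC5 reads thus went from 14.6 to 47.4%. For H4C8 the 397-nt form went from 53.2 ± 12.6 to 14.9 ± 2.69 CPM, while the 1034-nt spliced form was at 19.98 ± 2.51 and 28.2 ± 2.19 CPM and the 2163-nt spliced form at 37.1 ± 3.12 and 22.3 ± 0.116 CPM. Over all members, spliced transcripts took 7.16 and 9.20% of histone reads in the 0 h libraries, 15.0 and 16.1% in those of 24 h, and 11.2 and 12.8% in those of 72 h. The summed level of spliced transcripts itself was lower, at 615.5 and 650.1 CPM in the 0 h libraries and 274.5 and 290 CPM in those of 24 h, so the share was higher while the level was not. The forms of a gene share most of their bases, so these shares are estimates, and they have no test.

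H2BC6 (chromosome 6, 26172059 to 26184655) was the member called higher at 24 h. It had 4.20 and 4.05 CPM at 0 h, 6.57 and 6.44 CPM at 6 h, 6.46 and 6.25 CPM at 24 h, and 4.71 and 4.25 CPM at 72 h. The change was +0.62 ± 0.139 at 24 h (adjusted p = 0.00170, edgeR). All of its reads were assigned to a 2585-nt model of 4 exons, and its 497-nt model that ends at the stem-loop had 0 reads in all 16 libraries. H3C6 was alike in this, with all reads in a spliced model of 2679 nt, and was called at no time against 0 h, at 1.84 and 1.77 CPM at 0 h and 1.23 and 1.33 CPM at 24 h.

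**Figure D4:**
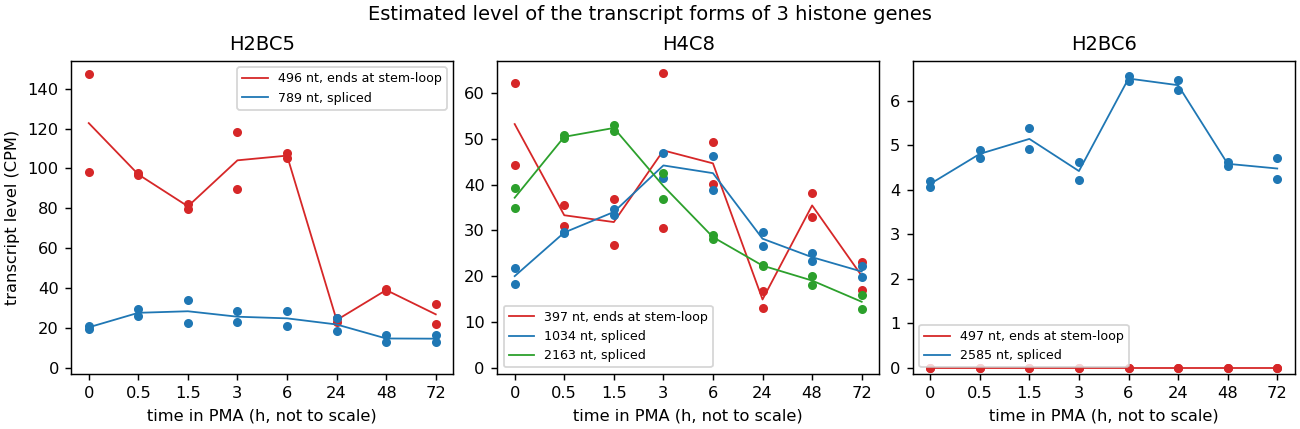
Estimated level in CPM (vertical axis, from 0) of the transcript forms of H2BC5, H4C8 and H2BC6 at each time in PMA (horizontal axis, in hours, not to scale), with 1 point per library and lines through the means. In H2BC5 and H4C8 the form ending at the stem-loop is near 24 and 15 CPM at 24 h, and in H2BC6 only the spliced form has reads.

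Many H2A and H2B genes lie head to head and share the stretch between their starts. With starts taken as the outer ends of the annotated genes, 218 to 356 bases lie between them in 11 pairs. These are 10 pairs of 1 H2A and 1 H2B gene, and H3C12 with H2BC17, which also pairs with H2AC17. In H3C12 that end may belong to its spliced 522-nt form, with 312.8 reads, and not to its 411-nt form, with 4864.4. It lies at 27893106, inside H2AC17 (27892757 to 27893149, same strand), and 87.1% of the 31-base stretches of H2AC17 are in H3C12. The pair of H3C12 and H2BC17 is thus not separate from that of H2AC17 and H2BC17. The 180 bases before the RefSeq starts of H2AC15 and H2BC15 overlap, but this rule does not pair them. Both genes of each of these 11 pairs were lower at 24 h, and their log2 fold changes differed by 0.122 to 1.01, with a median of 0.491. H2BC11 and H2AC11 differed least, at −2.46 and −2.34, and H2BC8 and H2AC8 most, at −0.92 and −1.93. At 6 h the widest difference was in H2AC1 and H2BC1, at −0.62 and +0.98, and H2AC1 was not called there.

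Genes of the same pathway were set beside the histone genes. Of 26 genes of DNA synthesis, 18 were lower at 6 h and 3 higher (all genes: 29.4% lower and 27.8% higher). At 24 h 22 were lower and 1 higher (all genes: 26.6% lower and 31.7% higher), with a median of −1.08. MCM7, a subunit of the replicative helicase, fell from 464 ± 58.2 CPM (SD, n = 2) to 154 ± 0.878 CPM at 24 h, and PCNA, the sliding clamp, from 107 ± 9.62 to 56.2 ± 3.95 CPM. CDT1, a loader of that helicase, fell most at 72 h (−2.05). From 24 to 48 h 19 of the 26 were higher and 0 lower (all genes: 8.88% higher and 6.12% lower). RRM2, a subunit of ribonucleotide reductase, stood above 0 h at each time, at +2.54 at 6 h. With 0 h replicate 2 left out, 18 of the 26 were lower at 6 h, as with it.

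The genes of histone pre-mRNA processing and decay did not move together. Of 20 tested, 4 were lower and 7 higher at 24 h, with a median of +0.11, beside 26.6% lower and 31.7% higher among all genes. Without either 0 h library 2 were lower. SLBP, which binds the stem-loop, fell from 77.9 ± 0.802 CPM to 60.8 ± 0.297 CPM at 24 h (−0.36 ± 0.0963, adjusted p = 0.00594, edgeR), and was not called at 72 h. TUT7, a uridylyltransferase of RNA decay, rose from 37.5 ± 7.25 CPM to 172 ± 7.60 CPM at 6 h (+2.20), and at +1.63 at 72 h. DHX9, an RNA helicase, had the most reads of this list and was at +0.79 at 6 h.

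Of 22 genes of histone transcription and the histone locus body, 8 were lower and 8 higher at 24 h, with a median of −0.05. Among all genes 26.6% were lower and 31.7% higher there. Leaving out 0 h replicate 1 gave 10 higher, and leaving out 0 h replicate 2 gave 5. NPAT, the coactivator that concentrates at histone loci, was at 55.4 ± 17.8 CPM at 0 h, 59.7 ± 3.08 at 24 h and 76.3 ± 13.3 CPM at 72 h, with a call at 72 h alone (+0.46, adjusted p = 0.0321, edgeR). CCNA2, a cyclin of S phase, fell from 162 ± 33.8 CPM to 46.5 ± 4.32 CPM at 24 h (−1.80), and the factor E2F2 fell by 2.92 on the log2 scale at 6 h.

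Histones made outside replication were measured in the same libraries. Of 8 replacement histone genes tested, 4 were lower and 2 higher at 24 h (all genes: 26.6% lower and 31.7% higher), with a median of −0.40. Without 0 h replicate 1, 0 of them were called higher at 24 h, and 1 without 0 h replicate 2. H3-3B, which encodes the replacement histone H3.3, was at 448 ± 6.09 CPM at 0 h, 1201 ± 0.406 at 6 h and 543 ± 16.2 CPM at 24 h (+1.42 at 6 h and +0.28 at 24 h, both called, the latter not without 0 h replicate 1). CENPA, the H3 of centromeres, fell by 2.01 on the log2 scale at 6 h, and H2AX, a variant of the DNA damage response, was not called at any time against 0 h. Of 24 chaperone and acetylation genes, 12 were lower and 5 higher at 24 h, beside the same shares of all genes (26.6% lower and 31.7% higher). NAP1L1, the most abundant by reads, was at +0.78 at 6 h, CABIN1 fell by 1.42 at 6 h, and TONSL, which reads new H4, fell by 1.58 at 72 h, all on the log2 scale.

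**Figure D5:**
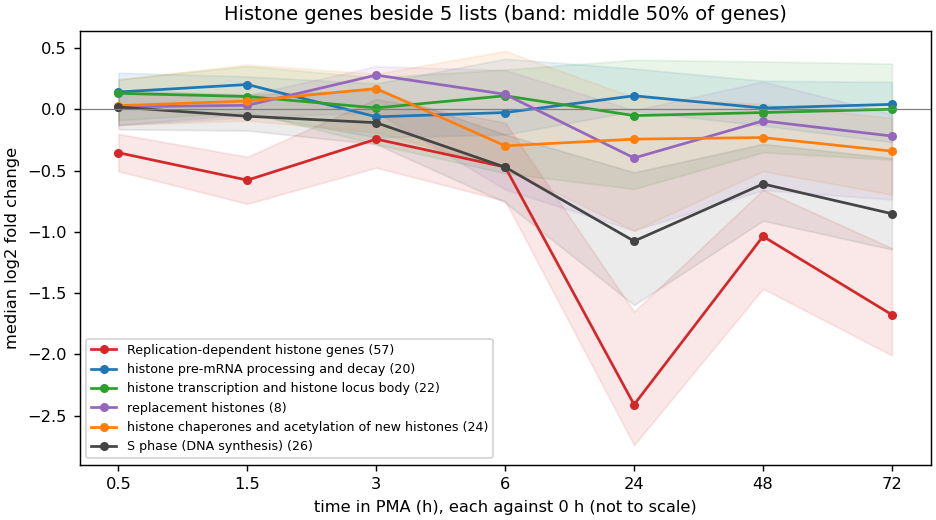
Median log2 fold change against 0 h (vertical axis) of the 57 histone genes and of 5 lists at each time in PMA (horizontal axis, in hours, not to scale), with bands for the middle 50% of the genes. The histone genes reach −2.41 at 24 h, the genes of DNA synthesis −1.08, and the other lists lie between −0.40 and +0.11 there.

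Near the read threshold, the members just inside it were H3C6 with 64.0 reads in its second-highest library, H2AC1 with 46.1 and H3-7 with 11.4. Just outside were H1-1 and H2BC3 with 9 reads each and H2BC14 with 6. In all, 13 genes lay under the threshold, and H3C15 had no transcript in the tables and is not analysed here. H3-7 was at or under 3 reads in every library from 24 h on, at least 2.77-fold lower at 24 h than at 0 h.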

How the data were processed

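Per the file headers, the authors deposited 1 table per library with an estimated count of reads and a TPM value for each of 177456 transcripts. The submitters' processing notes name Trim Galore 0.4.3 and Salmon; the annotation used for quantification is not given in the sources used here. Of the transcripts, 167027 (94.1%) matched the GENCODE 29 annotation of GRCh38 by identifier, in 35052 genes. The deposited estimated counts of a gene's transcripts were added up and rounded.

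All 8 time points were fitted together with edgeR 4.0.16 in R 4.3.3 (TMM, filterByExpr, quasi-likelihood), with p-values adjusted over 17559 genes (8 residual degrees of freedom, common coefficient of variation 0.123). The floor of 3 reads was 0.0623 to 0.128 CPM; floors cover counting error only. On simulated counts for 72 h against 0 h over 17559 genes, 80% of 2-fold and 99% of 4-fold changes were recovered and 9 of 188 calls were false. The simulation changed a small set of well-counted genes, drew counts at the fitted spread and left all other genes flat. These figures thus do not extend to members near the floor or to the difference between the 0 h libraries. The members, lists and tests were chosen with earlier results of these data known. Steps from 1.5 to 3 h, 24 to 48 h and 48 to 72 h were added after seeing the data, as was the summing of histone genes with copies holding over 60% of their 31-base stretches (52 units).

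Among histone genes averaging 1 CPM or more, the text names for each class the one with the most reads and the largest called rise and fall at 72 h, and for each time the 2 largest called rises and falls. It names from each other list the gene with the most reads, the largest called changes at 6 and 72 h, and SLBP, NPAT, H2AX, H3-3B and PCNA. Some genes that this rule picks are not reported here. H1-5, H2AC8, H2BC4, H2BC5, H2BC8, H2BC11, H2BC12, H2BC18, H3C2, H3C12, H4C8 and H4C11 were named after their values were seen. The alternatives were other size factors, total counts, DESeq2 1.42.0, other filters, counts from TPM, a replicate block, removal of GC trends, other thresholds, fits of only the compared times, and leaving out each library.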

Additional observations from a re-analysis of the deposited data

Results flagged for a closer look

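Outside the genes compared, 2 of 19 non-coding histone genes in the tables had more than 3 reads in every library, and the other 17 had at most 13 reads in any. These 2 are the transcribed pseudogenes H2BC19P and H2BC20P, and they were singled out because they carry signal although they are neither members nor in a list compared here. Both were in the fit across all genes. H2BC19P had a mean of 11.1 CPM at 0 h, 46.6 ± 2.87 CPM (SD, n = 2) at 3 h and 16.4 ± 0.970 CPM at 24 h. H2BC20P had a mean of 23.1 CPM at 0 h, 53.5 ± 0.424 CPM at 3 h and 23.2 ± 1.56 CPM at 24 h. Neither was called lower at 24 h, where the log2 fold changes were +0.57 (adjusted p = 0.000507, edgeR) and +0.01.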

How the results depend on the processing

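The falls at 24, 48 and 72 h and from 6 to 24 h kept their direction under each alternative run. With 1 library left out, the medians ranged from −2.55 to −2.17, −1.22 to −0.785 and −1.89 to −1.35 at 24, 48 and 72 h. Scaled to total counts, the median was −2.65 at 24 h and −0.83 at 6 h. Within replicate 1 libraries it was −1.41 at 72 h and, with the sign reversed, +0.13 at 3 h. The causes were not tested. Counts of calls at other steps moved more. At 0.5 h (1 call) they were 0 with total counts, an adjusted p under 0.01, the 1.5-fold test, only the 2 time points or merged copies, 5 with DESeq2, 21 with no filter, and 0 to 30 with 1 library left out. At 1.5 h (28 calls) they were 44 with no filter, 14 under 0.01, 0 at 1.5-fold, 16 with only the 2 time points, and 8 to 42 with 1 library left out. At 3 h (15 calls) they were 31 with total counts, 23 with no filter, 26 with GC trend removal and the replicate block, 8 under 0.01, 3 at 1.5-fold, 8 with only the 2 time points, and 6 to 28 with 1 library left out. At 6 h (31 calls) 10 passed at 1.5-fold, and leaving out 1 library left 20 to 38. From 24 to 72 h (31 calls) 10 passed at 1.5-fold, with 19 to 33. From 24 to 48 h (45 calls) 26 passed at 1.5-fold, with 32 to 41. From 1.5 to 3 h (9 calls) they were 15 with DESeq2, 21 with no filter, 18 with the replicate block, 14 with GC removed, 26 with both, 3 under 0.01, 0 at 1.5-fold, 16 with only the 2 time points, and 2 to 12 with 1 library left out. From 48 to 72 h (9 calls) they were 20 with DESeq2, 35 with no filter, 3 with counts from TPM, 17 with the block, 21 with GC removed, 29 with both, 0 under 0.01, 0 at 1.5-fold, 1 with only the 2 time points, and 0 to 2 with 1 library left out. Over pairs of time points the deviations of same-numbered libraries correlated at −0.10 to 0.188, with a median of 0.084 and 11 of 28 over 0.1. The numbers were not taken as pairs in the main fit. At the treated times the gap between transcript and effective length was 210.0 to 221.1 nt in replicate 1 and 229.4 to 248.4 nt in replicate 2. The numbers thus went with a difference between libraries, which was not tested beyond the block. The block gave 38 calls at 1.5 h, 36 at 6 h and 55 at 24 h. Summed, H4C14 and H4C15, mostly H4C14, changed by −0.40 at 0.5 h and −0.57 at 1.5 h, opposite in sign to H4C15 alone. With 3 reads as the floor, the depth limits statements on H3-7, H2AC1 and H1-6.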
